A study of Mus musculus with 24 samples.

Results

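The mitosis genes described here are 51 genes whose products carry a cell into and through mitosis, out of 37583 genes in the deposited mouse liver RNA table. They were chosen by name, as members of the mitotic machinery, and each symbol was looked up in that table. The choice was made with earlier results of these data known. Livers were taken at 8.5 months of age in 4 groups of 3 mice, and each RNA library comes from a separately numbered mouse. DEN_KO livers are from Smyd3 knockout mice that had received diethylnitrosamine (DEN), a liver carcinogen, as a single intraperitoneal injection of 25 mg/kg. DEN_WT livers are from wild type mice given the same injection. KO livers are from untreated Smyd3 knockout mice, and WT livers from untreated wild type mice. All 4 groups are labelled C57BL6/CBA. The knockout is a gene trap in an intron of Smyd3, a SET and MYND domain lysine methyltransferase, and derives from 1 embryonic stem cell clone, so exons before the trap can still be transcribed. Chromatin immunoprecipitation covers only DEN-treated livers, with 1 deposited region list for Smyd3 (DEN_WT) and 1 each for H3K4me3, the trimethyl mark of active gene starts (DEN_KO and DEN_WT).

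Mitosis begins when Cdk1, bound to cyclin A or B, phosphorylates its targets, and it ends when the anaphase-promoting complex (APC/C), activated by Cdc20, marks securin and the cyclins for destruction. In between, chromosomes condense, kinetochores attach them to the spindle, a checkpoint holds back anaphase until all are attached, and the central spindle and a contractile ring divide the cell. Hepatocytes of the adult liver are mostly out of the cell cycle. Transcription of mitosis genes peaks late in the cycle and is known to run through the cell cycle genes homology region (CHR) and CCAAT boxes of their promoters, which the MuvB complexes with B-Myb and Foxm1, and the factor NF-Y, bind.

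The promoters of the members show these letters more often than promoters at large. RefSeq promoter sequences (GRCm38.p6, 250 bases before to 50 bases after each start) were matched for 42 of the 51 members, with 44 promoters. The CHR letters TTTGAA or TTCGAA, searched on both strands, were present in 34 of the 44 (77.3%), against 19.2% of all 32851 promoters of the same length. The CCAAT letters, on both strands, were also present in 34 of the 44 (77.3%), against 37.4% of all promoters. Both kinds of letters stood together in 31 of the 44 (70.5%), against 7.52% of all promoters. E2F letters, taken as TTCCCGC, as the sequence TTGGCGC or as the sequence TTCGCGC on both strands, were present in 9 (20.5%), against 8.07%. A TTGGCGC match can share bases with a CCAAT match on the other strand, and TTCGAA reads the same on both strands. Such a match is a description of the letters and not evidence of binding. Of the 45 CHR matches in member promoters, 31 began within 50 bases of the start site. The promoters of Prc1 overlap each other, as do those of Ect2, so their sites are counted more than once. Positions of the letters in all promoters were not compared.

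The 100 bases before the start are given for 6 members that carry both kinds of letters there, with CHR and CCAAT letters of either strand in capitals. In GRCm38.p6 they lie as follows: Cdk1 at chr10:69352913-69353012 (minus strand), Cdc20 at chr4:118437344-118437443 (minus strand), Ube2c at chr2:164769829-164769928 (plus strand), Espl1 at chr15:102296193-102296292 (plus strand), Kif11 at chr19:37376282-37376381 (plus strand) and Top2a at chr11:99024190-99024289 (minus strand). Each is written 5′ to 3′ on the strand of its gene.
Cdk1: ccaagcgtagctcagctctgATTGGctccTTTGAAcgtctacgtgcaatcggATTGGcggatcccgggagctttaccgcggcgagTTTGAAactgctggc
Cdc20: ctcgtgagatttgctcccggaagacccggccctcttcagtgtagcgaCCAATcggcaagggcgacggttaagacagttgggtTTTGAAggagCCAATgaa
Ube2c: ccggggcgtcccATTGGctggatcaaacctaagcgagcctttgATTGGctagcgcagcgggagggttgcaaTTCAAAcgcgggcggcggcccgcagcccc
Espl1: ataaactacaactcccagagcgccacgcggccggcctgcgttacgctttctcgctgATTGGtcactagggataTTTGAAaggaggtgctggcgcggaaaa
Kif11: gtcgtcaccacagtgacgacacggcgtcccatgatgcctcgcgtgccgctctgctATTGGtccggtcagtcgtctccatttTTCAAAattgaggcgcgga
Top2a: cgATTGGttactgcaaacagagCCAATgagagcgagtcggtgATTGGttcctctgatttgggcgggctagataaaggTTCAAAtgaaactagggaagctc

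The same 100 bases are given for Cks2 and Pttg1, 2 members whose RNA ran differently from the others in the results that follow. They lie as Cks2 at chr13:51645132-51645231 (plus strand) and Pttg1 at chr11:43425982-43426081 (minus strand). Cks2 has CCAAT letters in capitals and no CHR letters, and Pttg1 has neither.
Cks2: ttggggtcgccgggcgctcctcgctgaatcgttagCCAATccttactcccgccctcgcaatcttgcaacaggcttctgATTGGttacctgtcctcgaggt
Pttg1: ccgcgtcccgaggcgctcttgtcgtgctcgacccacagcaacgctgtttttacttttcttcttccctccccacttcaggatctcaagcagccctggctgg
CHR letters were likewise missing from the 300-base promoters of Ccnb1, Melk, Mad2l1, Cenpe, Nuf2, Nusap1, Birc5 and Ncaph, so their absence is not peculiar to Cks2 and Pttg1. Among the matched members, 29 of the 37 that were higher in DEN_WT than in WT livers had CHR letters, as did 3 of the 5 that were not.

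Values are normalized read counts, rounded to whole numbers by the authors, and fold changes come from limma on log2(value + 1), fitted over the 16471 genes that reached 10 in 3 or more libraries. The values of a library summed to between 22320634 and 28973396. All 51 members entered the test, but 9 of them (Cdc25c, Cdkn3, Plk1, Melk, Bub1, Ttk, Ndc80, Kif2c and Ncapg) reached the minimum only through the DEN_WT libraries, so they had to differ in some measure. Smyd3 itself read 12, 3 and 8 in DEN_KO, 57, 71 and 74 in DEN_WT, 29, 17 and 22 in KO, and 79, 89 and 59 in WT livers, lower in every knockout library. In bulk tissue, fewer cells in mitosis and less RNA per such cell cannot be told apart.

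The mitosis genes were low in untreated livers of both genotypes, high in DEN_WT livers and in between in DEN_KO livers. The median member read 27, 43 and 27 in the DEN_KO libraries and 68, 192 and 61 in the DEN_WT libraries. It read 13, 12 and 14 in KO and 9, 11 and 14 in WT libraries. Group means ran in the order DEN_WT, DEN_KO, KO for 48 of the 51 members. DEN_WT replicate 2 stood apart: it was the highest of all 12 libraries for 49 members, and its value was a median of 2.61 times the higher of the other DEN_WT libraries. Among the DEN_KO libraries replicate 2 was the highest for 39 members, by a median of 1.42 times over the higher of the other DEN_KO libraries. Since DEN_WT replicate 2 carries so much of the signal, the comparisons are also given without it.

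**Figure D1:**
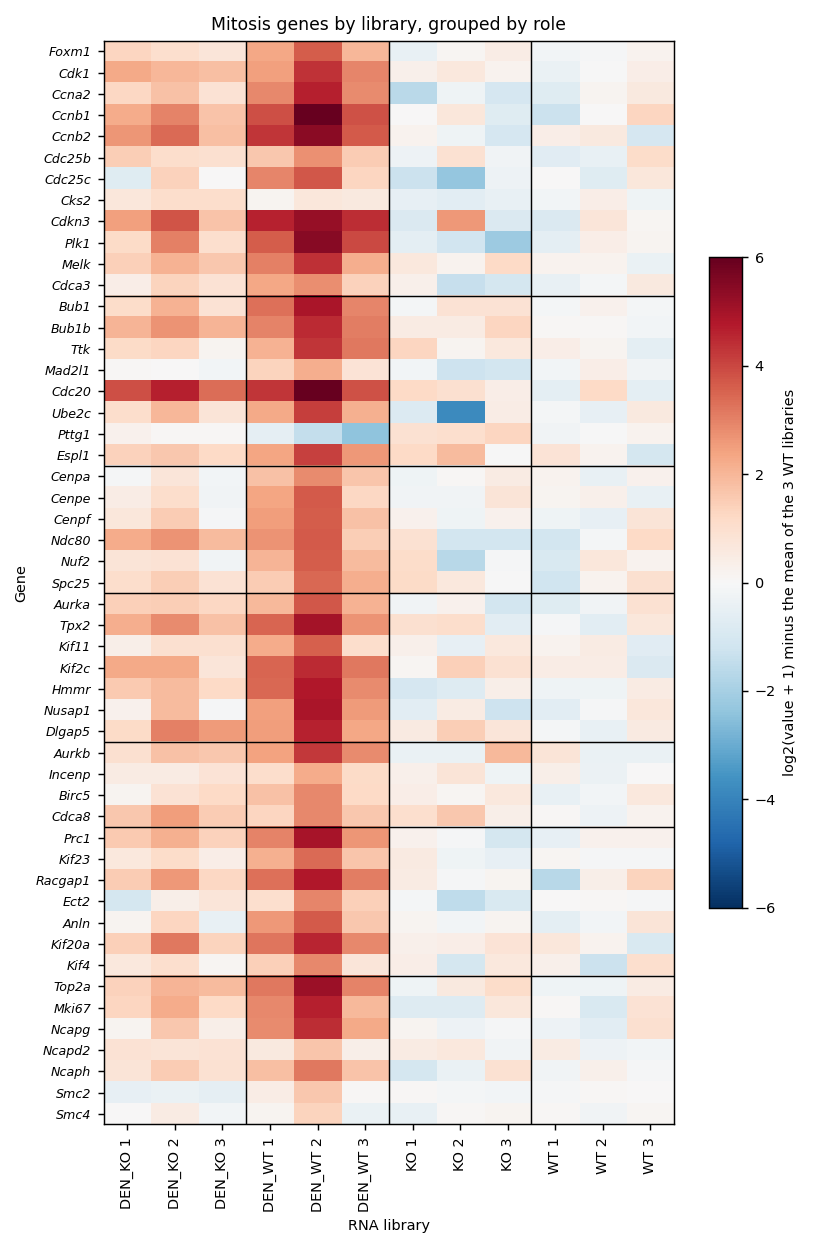
Each row is a mitosis gene and each column an RNA library. Color gives log2(value + 1) minus the mean of the 3 WT libraries, and horizontal lines separate roles. DEN_WT columns are the reddest, with replicate 2 the highest library for 49 of 51 genes, while DEN_KO columns are paler and Pttg1 runs the other way.

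DEN treatment of wild type mice went with higher levels of nearly the whole set. In DEN_WT against WT livers 45 of the 51 members were higher at an adjusted p under 0.05 (limma, Benjamini-Hochberg), where 16.1% of all tested genes were higher. The securin gene Pttg1 was lower, where 13.5% of all tested genes were lower. The 5 members that did not pass were Cks2, Kif4, Ncapd2, Smc2 and Smc4. The members that reached the minimum for testing only through the DEN_WT libraries are all among the 45. Their calls cannot be read as support. The median log2 fold change of the members was 2.65, against -0.02 over all tested genes. Every DEN_WT library lay above every WT library for 46 members, which held for 22.4% of all tested genes. Without DEN_WT replicate 2, 38 members were higher, against 13.9% of tested genes.

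Among DEN-treated livers the set was lower in the knockout. In DEN_KO against DEN_WT livers 30 of the 51 members were lower, where 17.4% of all tested genes were lower, and Pttg1 was the only member that was higher, where 16.4% were. The other 20 did not pass, and the median member difference was -1.59 on the log2 scale, against -0.06 over all tested genes. Among the 30 lower members are Cdc25c, Plk1, Bub1, Ttk, Kif2c and Ncapg, which reached the minimum for testing only through the DEN_WT libraries. Their calls cannot be read as support. For 37 members every DEN_KO library lay below every DEN_WT library, which held for 26.4% of all tested genes. The count of lower members depended on single livers. It was 9 without DEN_WT replicate 2 (12.4% of tested genes). Without DEN_KO replicate 1 it was 17 (2287 of 16471 tested genes), and without DEN_KO replicate 3 it was 14 (2018 of 16471). The 9 left without DEN_WT replicate 2 were Foxm1, Ccna2, Bub1, Mad2l1, Cenpa, Hmmr, Anln, Top2a and Ncapg. These 9, and Pttg1 as higher, passed whichever of the 12 libraries was left out. Bub1 and Ncapg among them reached the minimum for testing only through the DEN_WT libraries, where they are high. Each of these fits kept the genes chosen from all 12 libraries, so the calls of Bub1 and Ncapg cannot be read as support.

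**Figure D2:**
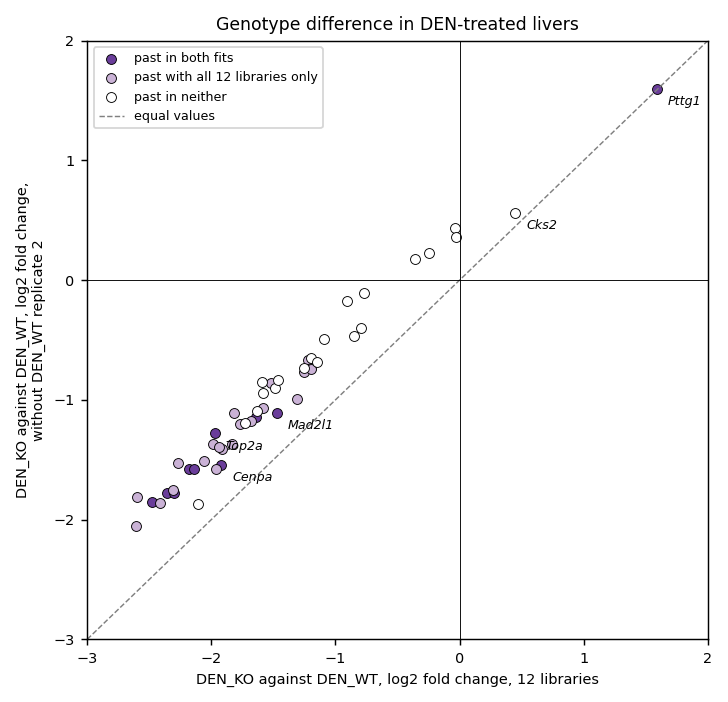
Each point is a mitosis gene. The x axis gives its log2 fold change in DEN_KO against DEN_WT livers over all 12 libraries and the y axis the same without DEN_WT replicate 2. Dark points passed the threshold in both fits. Nearly all points lie above the dashed line of equal values, so most negative differences were smaller without that library. Pttg1 and Cks2 are positive on both axes.

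DEN treatment of knockout mice went with a smaller change. In DEN_KO against KO livers 13 members were higher, where 8.91% of all tested genes were higher, and 0 were lower, where 6.02% of all tested genes were lower. The 13 were Cdk1, Ccna2, Ccnb1, Ccnb2, Cks2, Plk1, Cdca3, Bub1b, Cdc20, Ndc80, Aurka, Hmmr and Prc1. The median member difference was 1.04, against 0.02 over all tested genes, and 49 of 51 values were positive. The count fell to 4 without DEN_KO replicate 2, to 7 without DEN_KO replicate 1, DEN_KO replicate 3 or KO replicate 1, and to 8 without KO replicate 2. Over all 16471 tested genes the higher count was 780 without DEN_KO replicate 2, 1051 without DEN_KO replicate 1 and 888 without DEN_KO replicate 3. It was 865 without KO replicate 1 and 1062 without KO replicate 2. In untreated livers no genotype difference was detected: 0 members passed in KO against WT, where 1.16% of all tested genes did. At an unadjusted p under 0.05 limma gave 2 members, where 2492 of the 16471 tested genes passed. With array weights limma called 1 member as lower, where 1418 of all tested genes were called lower.

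The interaction, in which the DEN effect of WT is subtracted from that of KO, was negative for 48 members and passed for 6, all negative, where 7.83% of all tested genes were called in that direction. The 6 were Bub1 (-2.89 ± 0.81 SE), Bub1b (-2.02 ± 0.63), Ttk (-3.01 ± 0.84), Cenpa (-2.02 ± 0.50), Kif2c (-2.78 ± 0.84) and Top2a (-2.44 ± 0.74), with limma adjusted p from 0.016 to 0.044. Bub1, Ttk and Kif2c reached the minimum for testing only through the DEN_WT libraries, where they are high. Their calls cannot be read as support, nor can the count of 6 that includes them. The count was 1 (Cenpa) without DEN_WT replicate 2, without DEN_KO replicate 3 or without a filter on low values, 3 without DEN_KO replicate 1, 2 without KO replicate 2 and 11 without DEN_WT replicate 3. Over all 16471 tested genes, lower calls numbered 873 without DEN_WT replicate 2 and 820 without DEN_KO replicate 3. They numbered 940 without DEN_KO replicate 1, 979 without KO replicate 2 and 886 without DEN_WT replicate 3. Without the filter they were 955 of 29653. For the other 45 members a difference between the genotypes in the size of the DEN effect was not shown.

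**Figure D3:**
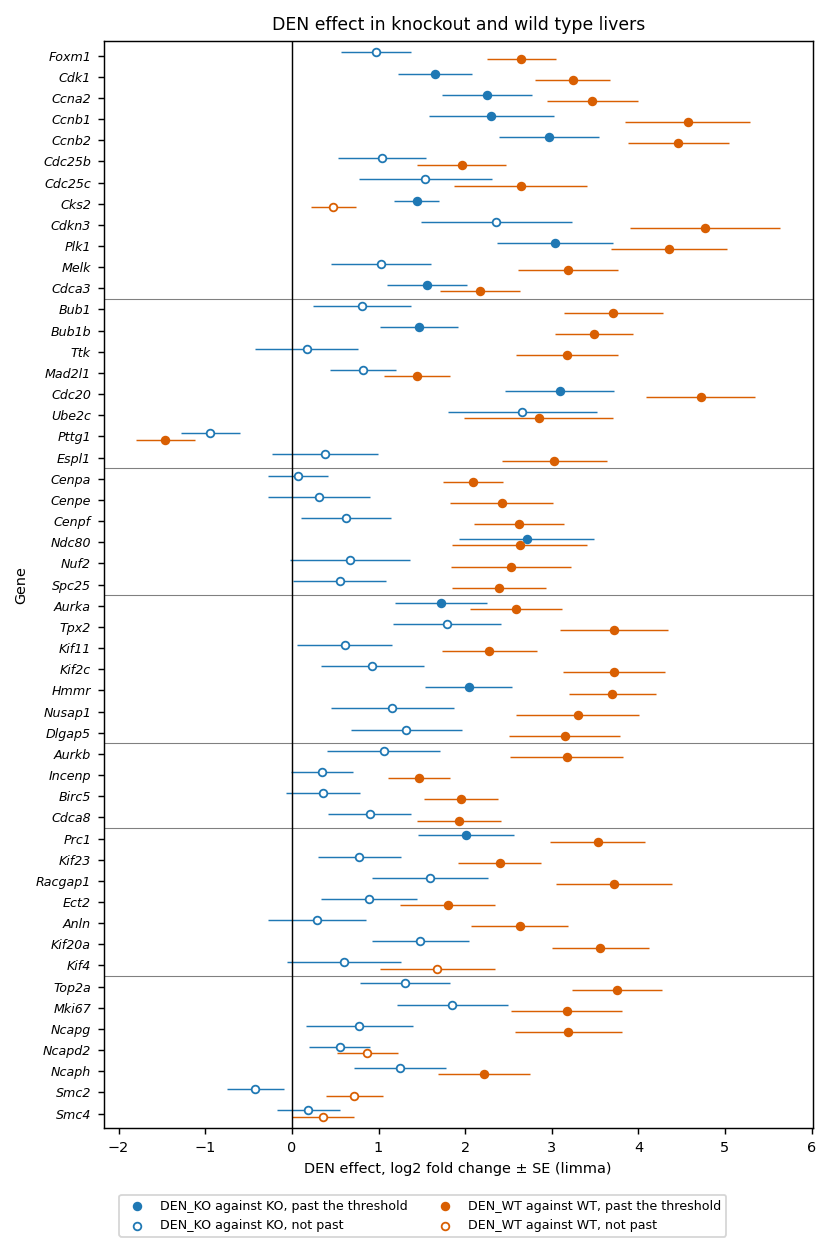
Log2 fold change with DEN (x axis, ± SE from limma) for each mitosis gene (y axis), in DEN_KO against KO (blue) and in DEN_WT against WT livers (orange). Filled points passed an adjusted p of 0.05. In KO 13 genes are filled, in WT 46, and Pttg1 is the sole filled point left of 0.

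The genes of mitotic entry comprise Foxm1, the transcription factor of late cell cycle genes, Cdk1 and its cyclins, and the phosphatases and kinases that act on them. Of these 12 genes, 11 were higher in DEN_WT than in WT, 8 were lower in DEN_KO than in DEN_WT, and 7 were higher in DEN_KO than in KO. Cyclin A2 (Ccna2) read 42, 60 and 32 in DEN_KO, 134, 460 and 128 in DEN_WT, 5, 14 and 8 in KO, and 10, 19 and 26 in WT livers. The 4 groups did not overlap except KO with WT. Its log2 fold change was -2.18 ± 0.52 SE in DEN_KO against DEN_WT (limma adjusted p = 0.0066) and 3.47 ± 0.52 in DEN_WT against WT (adjusted p = 0.00035). Cyclin B2 (Ccnb2) read 37, 62 and 20 in DEN_KO, 115, 251 and 77 in DEN_WT, 6, 4 and 2 in KO, and 7, 8 and 2 in WT livers. Every DEN_KO library lay between the untreated and the DEN_WT libraries. It was 9.92-fold higher in mean in DEN_KO than in KO and 26.1-fold higher in DEN_WT than in WT.

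Plk1, the polo kinase that helps to activate Cdk1 and build the spindle, read 9, 36 and 8 in DEN_KO, 54, 197 and 69 in DEN_WT, 2, 1 and 0 in KO, and 2, 5 and 4 in WT livers. Its log2 fold change was -2.61 ± 0.67 in DEN_KO against DEN_WT (limma adjusted p = 0.0089), and -2.05 with an adjusted p of 0.0512 without DEN_WT replicate 2. Plk1 reached the minimum for testing only through the DEN_WT libraries, so its call cannot be read as support. Cdca3, an adaptor of the ubiquitin ligase that removes the Cdk1 inhibitor Wee1, read 67, 127 and 93 in DEN_KO, 252, 359 and 135 in DEN_WT, 63, 19 and 24 in KO, and 37, 46 and 75 in WT livers. Its highest DEN_KO library reached 127, just under the lowest DEN_WT library. Foxm1 averaged 46.3 ± 8.51 in DEN_KO and 166 ± 109 in DEN_WT (SD, n = 3 each), against 23.7 ± 7.51 in KO and 22.3 ± 3.21 in WT. The SD of DEN_WT is set by replicate 2, which read 291 against 116 and 90. Cdk1 was lower by -1.22 ± 0.43 in DEN_KO than in DEN_WT (limma adjusted p = 0.042), and by -0.67 without DEN_WT replicate 2 (adjusted p = 0.201).

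Cks2, a small subunit that binds Cdk1, took another course. It read 106, 136 and 137 in DEN_KO, 73, 107 and 98 in DEN_WT, 47, 42 and 48 in KO, and 59, 88 and 54 in WT livers. The DEN_KO libraries were the highest, with replicate 1 just inside the range of DEN_WT. The log2 fold change was 1.44 ± 0.26 in DEN_KO against KO (limma adjusted p = 0.0036) and 0.48 ± 0.26 in DEN_WT against WT (adjusted p = 0.18). The interaction was 0.96 ± 0.36 with an adjusted p of 0.084, so a difference between genotypes did not pass.

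**Figure D4:**
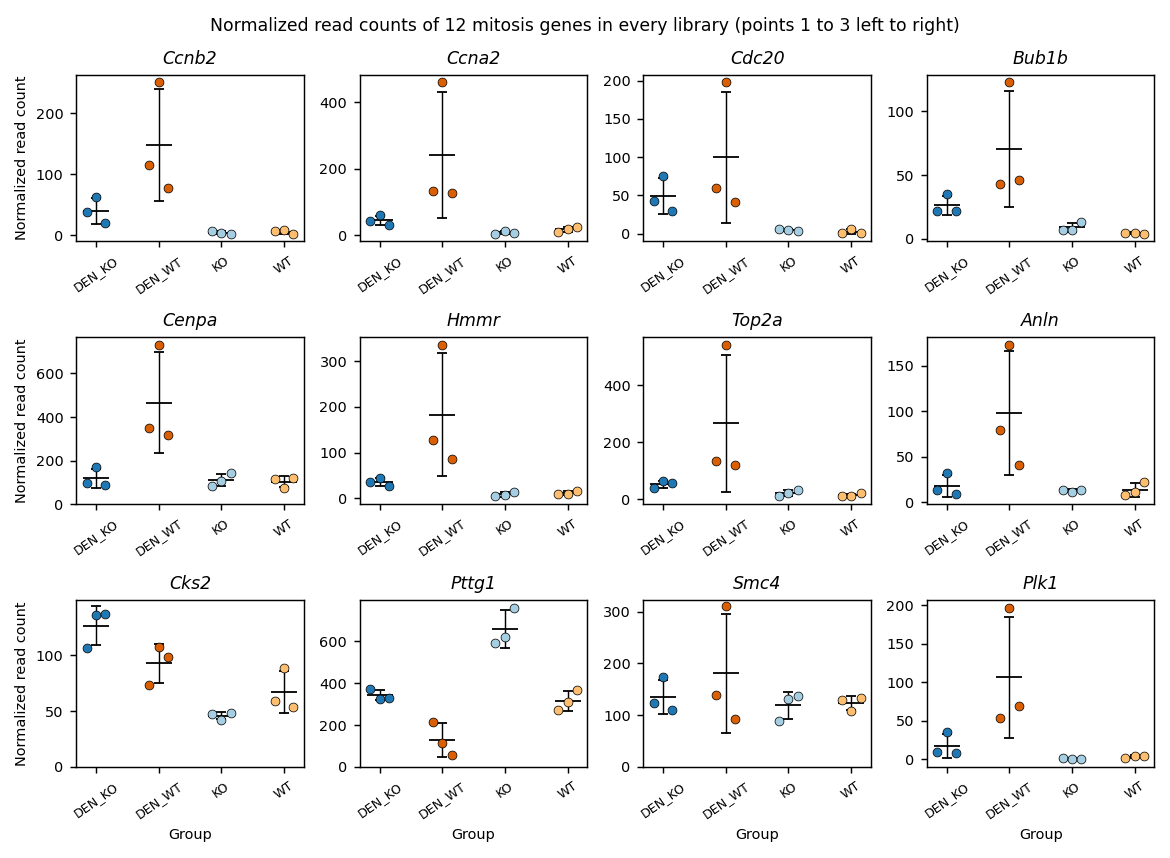
Normalized read counts (y axis, a separate scale from 0 in each panel) of 12 mitosis genes in DEN_KO, DEN_WT, KO and WT livers. Points are libraries 1 to 3 from left to right, with the mean (bar) and SD of 3. In 10 panels DEN_WT replicate 2 is the highest point, whereas Cks2 is highest in DEN_KO and Pttg1 in KO.

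The checkpoint and anaphase genes hold the kinases and adaptors that delay anaphase (Bub1, Bub1b, Ttk, Mad2l1) and the machinery that starts it (Cdc20, Ube2c, Pttg1, Espl1). Of these 8 genes, 7 were higher in DEN_WT than in WT and 4 were lower in DEN_KO than in DEN_WT. Bub1b, the pseudokinase BubR1 of the checkpoint complex, read 22, 35 and 22 in DEN_KO, 43, 123 and 46 in DEN_WT, 7, 7 and 13 in KO, and 5, 5 and 4 in WT livers. None of the 4 groups overlapped, KO lying above WT. Bub1, the kinase that builds the checkpoint at kinetochores, read 6, 13 and 5 in DEN_KO, 32, 96 and 24 in DEN_WT, 2, 5 and 5 in KO, and 2, 3 and 2 in WT livers. The DEN_KO libraries met the KO range and stayed under all DEN_WT libraries. Ttk, the kinase Mps1 that starts the checkpoint, read 9, 10 and 4 in DEN_KO, 18, 88 and 39 in DEN_WT, 10, 4 and 6 in KO, and 5, 4 and 2 in WT livers. Its DEN effect was 0.17 ± 0.59 in DEN_KO against KO (limma adjusted p = 0.87) and 3.18 ± 0.59 in DEN_WT against WT (adjusted p = 0.0014). Ttk reached the minimum for testing only through the DEN_WT libraries, so its call in DEN_WT against WT cannot be read as support.

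Cdc20, the activator of the APC/C, read 43, 75 and 30 in DEN_KO, 59, 198 and 42 in DEN_WT, 6, 5 and 3 in KO, and 1, 6 and 1 in WT livers. Both DEN-treated groups lay far above both untreated ones, while they overlapped each other. Its log2 fold change was 3.09 ± 0.63 in DEN_KO against KO (limma adjusted p = 0.0077), 4.72 ± 0.63 in DEN_WT against WT (adjusted p = 0.00015) and -0.77 ± 0.63 in DEN_KO against DEN_WT (adjusted p = 0.37). Ube2c, the ubiquitin-conjugating enzyme of the APC/C, had every DEN_KO library under every DEN_WT library and a difference of -1.58 ± 0.86 that did not pass (limma adjusted p = 0.17). Espl1 encodes separase, the protease that cuts cohesin. It averaged 15.3 ± 2.52 in DEN_KO and 57.3 ± 41.4 in DEN_WT (SD, n = 3 each).

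Pttg1 encodes securin, the inhibitor of separase, and ran against the rest of the set. It read 370, 325 and 330 in DEN_KO, 215, 115 and 58 in DEN_WT, 590, 622 and 760 in KO, and 270, 310 and 365 in WT livers. DEN_WT was the lowest group and KO the highest, and DEN_KO overlapped only WT. The log2 fold change was 1.59 ± 0.34 in DEN_KO against DEN_WT (limma adjusted p = 0.0034) and -1.46 ± 0.34 in DEN_WT against WT (adjusted p = 0.0057). It was -0.94 ± 0.34 in DEN_KO against KO (adjusted p = 0.08) and 1.06 ± 0.34 in KO against WT (adjusted p = 0.17), which did not pass although the libraries did not overlap. The interaction was 0.53 ± 0.48 (adjusted p = 0.49). Without DEN_WT replicate 2 the difference between DEN_KO and DEN_WT was 1.60 (adjusted p = 0.0117).

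The kinetochore genes encode the centromeric histone Cenpa, the motor Cenpe and the large protein Cenpf that load at kinetochores, and Ndc80, Nuf2 and Spc25 of the complex that grips microtubules. All 6 were higher in DEN_WT than in WT, 4 were lower in DEN_KO than in DEN_WT, and 1 (Ndc80) was higher in DEN_KO than in KO. Cenpa read 97, 169 and 90 in DEN_KO, 348, 733 and 319 in DEN_WT, 84, 107 and 141 in KO, and 117, 73 and 121 in WT livers. DEN_KO libraries fell within or near the untreated range, and the lowest DEN_WT library was above all others. Its log2 fold change was 0.07 ± 0.35 in DEN_KO against KO (limma adjusted p = 0.91) and 2.09 ± 0.35 in DEN_WT against WT (adjusted p = 0.0007). Cenpa is the only member whose interaction passed whichever library was left out. Ndc80 was low throughout, at 9, 13 and 7 in DEN_KO, 13, 27 and 5 in DEN_WT, 3, 0 and 0 in KO, and 0, 1 and 4 in WT livers. DEN_KO and DEN_WT overlapped, and their difference was -0.36 ± 0.78 (limma adjusted p = 0.76).

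The 7 spindle genes, which include the kinase Aurka and its activator Tpx2, were all higher in DEN_WT than in WT, and 4 of them were lower in DEN_KO than in DEN_WT. Hmmr, which encodes a microtubule-binding protein of the spindle pole, read 35, 44 and 26 in DEN_KO, 128, 336 and 85 in DEN_WT, 5, 6 and 14 in KO, and 9, 9 and 16 in WT livers. DEN_KO lay between the untreated and the DEN_WT libraries with no overlap. Its log2 fold change was -2.14 ± 0.50 in DEN_KO against DEN_WT (limma adjusted p = 0.0059) and -1.58 without DEN_WT replicate 2 (adjusted p = 0.0307). Kif2c, a kinesin that takes microtubules apart at the centromere, read 17, 17 and 5 in DEN_KO, 41, 81 and 32 in DEN_WT, 3, 9 and 6 in KO, and 4, 4 and 1 in WT livers. Nusap1, which bundles spindle microtubules, differed by -2.60 ± 0.71 in DEN_KO against DEN_WT (limma adjusted p = 0.013), with -1.81 and an adjusted p of 0.0676 without DEN_WT replicate 2. Aurka, Tpx2 and Dlgap5 did not pass between DEN_KO and DEN_WT, with values from -1.46 to -0.91.

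The chromosomal passenger complex, which corrects faulty attachments and later directs cytokinesis, consists of the kinase Aurkb and its partners Incenp, Birc5 (survivin) and Cdca8 (borealin). All 4 genes were higher in DEN_WT than in WT, 0 passed in DEN_KO against KO, and only Birc5 was lower in DEN_KO than in DEN_WT. Birc5 read 42, 70 and 88 in DEN_KO, 131, 284 and 87 in DEN_WT, 50, 41 and 59 in KO, and 27, 34 and 58 in WT livers. DEN_KO replicate 3 was level with DEN_WT replicate 3, so these groups overlapped, and without DEN_WT replicate 2 the difference no longer passed (-0.73, limma adjusted p = 0.198). Aurkb read 17, 30 and 27 in DEN_KO, 48, 175 and 65 in DEN_WT, 6, 6 and 34 in KO, and 15, 6 and 6 in WT livers. Its DEN_KO and DEN_WT libraries did not overlap, yet the difference of -1.73 ± 0.65 missed the threshold (limma adjusted p = 0.053). Cdca8 differed by -0.04 ± 0.48 between DEN_KO and DEN_WT, and by 0.44 without DEN_WT replicate 2.

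The cytokinesis genes include Prc1, which bundles the central spindle, Kif23 and Racgap1, which form centralspindlin, the cytokinesis regulator Ect2 and the ring scaffold Anln. Of these 7 genes, 6 were higher in DEN_WT than in WT and 6 were lower in DEN_KO than in DEN_WT. Anln, the gene of anillin, read 14, 32 and 9 in DEN_KO, 80, 173 and 41 in DEN_WT, 14, 11 and 14 in KO, and 8, 11 and 22 in WT livers. Its DEN_KO libraries spread around the untreated values and stayed below all DEN_WT libraries. The log2 fold change was -2.30 ± 0.56 in DEN_KO against DEN_WT (limma adjusted p = 0.0069) and 0.29 ± 0.56 in DEN_KO against KO (adjusted p = 0.76). Prc1 read 37, 55 and 32 in DEN_KO, 98, 392 and 79 in DEN_WT, 14, 11 and 5 in KO, and 8, 14 and 14 in WT livers. Racgap1 read 35, 76 and 29 in DEN_KO, 123, 358 and 104 in DEN_WT, 17, 11 and 13 in KO, and 3, 15 and 31 in WT livers. For both genes DEN_KO was intermediate, and the difference from DEN_WT was lost without DEN_WT replicate 2 (adjusted p = 0.0992 for Prc1 and 0.166 for Racgap1, limma). The motor gene Kif4 read 22, 28 and 15 in DEN_KO, 39, 107 and 23 in DEN_WT, 18, 6 and 22 in KO, and 17, 5 and 28 in WT livers, and passed in no comparison.

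The chromosome genes encode Top2a, the topoisomerase that untangles sister chromatids, the perichromosomal protein Mki67 used as a proliferation marker, and condensin subunits. Of these 7 genes, 4 were higher in DEN_WT than in WT, 3 were lower in DEN_KO than in DEN_WT, and 0 passed in DEN_KO against KO. Top2a read 40, 63 and 56 in DEN_KO, 136, 542 and 121 in DEN_WT, 12, 22 and 32 in KO, and 12, 12 and 21 in WT livers. DEN_KO lay above KO and below DEN_WT without overlap, with a log2 fold change of 1.31 ± 0.52 against KO (limma adjusted p = 0.11). Mki67 averaged 94.3 ± 39.6 in DEN_KO and 370 ± 348 in DEN_WT (SD, n = 3 each), a difference of -1.59 ± 0.64 that did not pass (limma adjusted p = 0.07). Ncapg, a subunit of condensin I, read 6, 18 and 7 in DEN_KO, 44, 135 and 29 in DEN_WT, 6, 4 and 5 in KO, and 4, 3 and 11 in WT livers. It was lower by -2.48 ± 0.62 in DEN_KO than in DEN_WT (limma adjusted p = 0.0078). Ncapg reached the minimum for testing only through the DEN_WT libraries, so this call cannot be read as support.

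The condensin members were not alike. Smc4, a core ATPase of condensin, read 124, 173 and 110 in DEN_KO, 139, 310 and 93 in DEN_WT, 89, 131 and 137 in KO, and 130, 108 and 134 in WT livers. Its groups overlapped, and it passed in no comparison. Ncapd2 read 117, 111 and 118 in DEN_KO, 97, 203 and 83 in DEN_WT, 89, 99 and 55 in KO, and 90, 51 and 57 in WT livers. It too passed in no comparison, although all DEN_KO libraries lay above all KO libraries. Smc2, the partner of Smc4, read 42, 45 and 41 in DEN_KO, 81, 189 and 64 in DEN_WT, 64, 56 and 53 in KO, and 57, 62 and 61 in WT livers. DEN_KO was the lowest of the 4 groups, at a log2 fold change of -1.20 ± 0.33 against DEN_WT (limma adjusted p = 0.014) and -0.42 ± 0.33 against KO (adjusted p = 0.42). The difference from DEN_WT was -0.74 with an adjusted p of 0.055 without DEN_WT replicate 2.

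Spans of 22 members overlap another gene of the deposited table, Ccna2 with Exosc9, Cdc20 with Elovl1 and Nusap1 with Oip5 on the opposite strand among them. Whether reads were counted by strand is not given in the sources used here, so reads of such partners cannot be told apart.

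Genes of the same processes outside the set changed less uniformly. Of 176 such genes, 171 were tested. In DEN_KO against DEN_WT 47 were lower and 12 higher (median -0.48), and in DEN_WT against WT 57 were higher and 11 lower (median 0.27). Without DEN_WT replicate 2, DEN_KO replicate 1 or DEN_KO replicate 3, the 47 lower genes numbered 23, 29 and 25. In those fits 2037, 2287 and 2018 of all 16471 tested genes were lower. With all libraries, the shares are read against 17.4% lower and 16.4% higher over all tested genes in DEN_KO against DEN_WT. In DEN_WT against WT they are read against 16.1% higher and 13.5% lower. Spindle and cytokinesis genes stood above them in the direction of the members. Of 31, 22 were higher and 1 lower in DEN_WT against WT, and 15 were lower and 1 higher in DEN_KO against DEN_WT. Psrc1, which encodes a spindle protein, read 33, 138 and 27 in DEN_KO, 336, 505 and 691 in DEN_WT, 6, 4 and 2 in KO, and 3, 3 and 5 in WT livers. Its highest library was DEN_WT replicate 3, unlike the members. The kinase gene Pbk read 13, 18 and 9 in DEN_KO, 40, 114 and 37 in DEN_WT, 7, 4 and 5 in KO, and 1, 1 and 0 in WT livers.

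Of 16 subunits and partners of the APC/C, 3 were higher and 2 lower in DEN_KO against DEN_WT, where 33.9% of all tested genes passed in either direction, and 0 were higher and 3 lower in DEN_WT against WT, where 29.6% passed. Ube2s, the APC/C enzyme that lengthens ubiquitin chains, had the direction of Pttg1 in DEN_KO against DEN_WT and in DEN_WT against WT, though not in the comparisons with KO. It read 425, 498 and 503 in DEN_KO, 201, 292 and 159 in DEN_WT, 351, 470 and 257 in KO, and 450, 492 and 378 in WT livers. Its log2 fold change was 1.17 ± 0.25 in DEN_KO against DEN_WT (limma adjusted p = 0.0032) and -1.05 ± 0.25 in DEN_WT against WT (adjusted p = 0.0061). Of 25 other kinetochore and checkpoint genes, 8 were higher and 2 lower in DEN_WT against WT, and 6 were lower and 1 higher in DEN_KO against DEN_WT. Spc24, which binds Spc25 in the Ndc80 complex, went against it: it read 271, 237 and 324 in DEN_KO, 207, 188 and 109 in DEN_WT, 312, 394 and 411 in KO, and 284, 360 and 418 in WT livers. All DEN_WT libraries were below those of the other groups. Sgol1, which encodes shugoshin, the guardian of centromeric cohesin, differed by -1.86 ± 0.66 in DEN_KO against DEN_WT (limma adjusted p = 0.045) and by 3.97 ± 0.66 in DEN_WT against WT (adjusted p = 0.00068).

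Of 17 other condensin, cohesin and chromosome genes, 5 were lower and 1 higher in DEN_KO against DEN_WT, and 4 were higher in DEN_WT against WT, among them the condensin II gene Ncapg2 (2.45 ± 0.41, limma adjusted p = 0.00075). Of 23 MuvB, DREAM and E2F regulators, 5 were lower in DEN_KO against DEN_WT, and 5 were higher and 3 lower in DEN_WT against WT, among the higher E2f2 (2.13 ± 0.37, limma adjusted p = 0.00085). Of 17 other Cdk1 regulators and inhibitors, 7 were lower and 2 higher in DEN_KO against DEN_WT, and 5 were higher in DEN_WT against WT. They include both Pkmyt1, the kinase that holds Cdk1 inactive, and the Cdk inhibitor Cdkn1a. Pkmyt1 read 15, 23 and 20 in DEN_KO, 78, 168 and 102 in DEN_WT, 6, 12 and 11 in KO, and 6, 1 and 10 in WT livers. Cdkn1a read 343, 469 and 133 in DEN_KO, 867, 928 and 1429 in DEN_WT, 351, 210 and 138 in KO, and 52, 43 and 155 in WT livers. Both were highest in every DEN_WT library, as most members were. Of 42 DNA replication genes, 7 were lower and 4 higher in DEN_KO against DEN_WT, and 13 were higher and 2 lower in DEN_WT against WT. In DEN_KO against DEN_WT the lower counts of the replication list and of the MuvB, DREAM and E2F list are near the 17.4% of all tested genes.

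Markers of some other liver cell types differed beside the mitosis genes. In DEN_KO against DEN_WT 6 of 10 stellate and fibroblast markers, 2 of 6 cholangiocyte markers and 3 of 10 endothelial markers were lower, where 17.4% of all tested genes were lower. Of 11 hepatocyte markers 4 were higher and 0 lower, but the list's median was -0.29. Summed hepatocyte markers ran from 2314325 to 3224003 in DEN_KO and from 3598105 to 5592858 in DEN_WT libraries, lower in every DEN_KO library. That sum is weighted to Alb, its largest marker, which differed by -1.10 ± 0.80 SE and did not pass (limma adjusted p = 0.31). The 4 markers that were higher were Ttr, Apoa2, Cps1 and Pck1, so the sum does not stand for the list. The macrophage (2 of 11 higher), B and plasma cell (1 of 6) and erythroid (1 of 7) lists were near the 16.4% of all tested genes that were higher. None of 8 tested T and NK cell markers and 3 tested neutrophil markers passed. The plasma cell marker Tnfrsf17 and the neutrophil marker Camp were at 0 in all DEN_KO libraries, and Ly6g and Camp in all KO libraries. Summed stellate and fibroblast markers ran from 3921 to 4791 in DEN_KO, 5724 to 9983 in DEN_WT, 3414 to 4490 in KO and 4626 to 5028 in WT libraries. Summed cholangiocyte markers ran from 593 to 872 in DEN_KO, 998 to 1292 in DEN_WT, 605 to 858 in KO and 538 to 728 in WT libraries. Both sums were highest in DEN_WT, as the mitosis genes were, and no marker of either list was at 0 throughout a group. DEN_WT replicate 2, the library highest in mitosis genes, did not stand out in these lists, at 6522 for stellate and 998 for cholangiocyte markers. It had the lowest macrophage sum of the 12 libraries (3104, against 11426 and 7456 in the other DEN_WT libraries) and the lowest T and NK cell sum (87, against 203 and 181). Its hepatocyte sum was the highest (5592858, against 3598105 and 4471343), with 3386204 of it from Alb. Yet its Cps1 (18168) and Pck1 (7106) values were the lowest of the 12 libraries. The part of cell composition in the differences of the mitosis genes was not tested.

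At their starts most mitosis genes carried listed regions of both kinds. Gene starts and regions are in mm9, and a region within 1000 bases of the start counted. The Smyd3 list of DEN_WT livers had a region at 42 of the 51 members (82.4%), against 64.2% of tested genes. The H3K4me3 lists had one at 46 members (90.2%) in DEN_KO and at 47 (92.2%) in DEN_WT, against 72.4% and 70.5% of tested genes. These higher shares were not seen when only regions at least as wide as the median of their list counted. The shares were then 51% against 50.4% for Smyd3. For H3K4me3 they were 47.1% against 49.9% in DEN_KO and 41.2% against 45.5% in DEN_WT. Among starts with H3K4me3 in DEN_WT, 85.1% of the members (40 of 47) and 84.4% of tested genes had a Smyd3 region, so the members were near the background once H3K4me3 was taken into account. The members without a Smyd3 region were Cdc25c, Cdca3, Bub1b, Tpx2, Nusap1, Dlgap5, Cdca8, Kif20a and Top2a. Their median log2 fold change in DEN_KO against DEN_WT was -1.46, against -1.63 for members with a region, and in DEN_WT against WT it was 3.30, against 2.63. These medians are descriptions with no test.

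H3K4me3 was listed in both groups at 45 members, and in neither at Ccnb2, Cdc25c and Cdca8. Bub1b (chr2:118423962-118425071, 1110 bases) and Cdc20 (chr4:118109316-118110543, 1228 bases) had a region only in the DEN_WT list. Kif2c had one only in the DEN_KO list (chr4:116855364-116855713, 350 bases), narrow and just before the start. Ccnb2 is the 1 member with a Smyd3 region (chr9:70268887-70269496) and H3K4me3 in neither list. Of the 45 members listed in both, 31 (68.9%) had the wider region in DEN_KO, as did 67.4% of tested genes, and the median ratio of widths, DEN_KO over DEN_WT, was 1.11 for both. The widest member regions were those of Cks2 (4584 bases in DEN_KO, 3561 in DEN_WT) and Smc4 (4454 bases in DEN_KO, 2592 in DEN_WT). Each list stands for 2 replicates and gives no signal height, so a region in 1 list alone has no replicate check and region widths say nothing of signal strength.

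**Figure D5:**
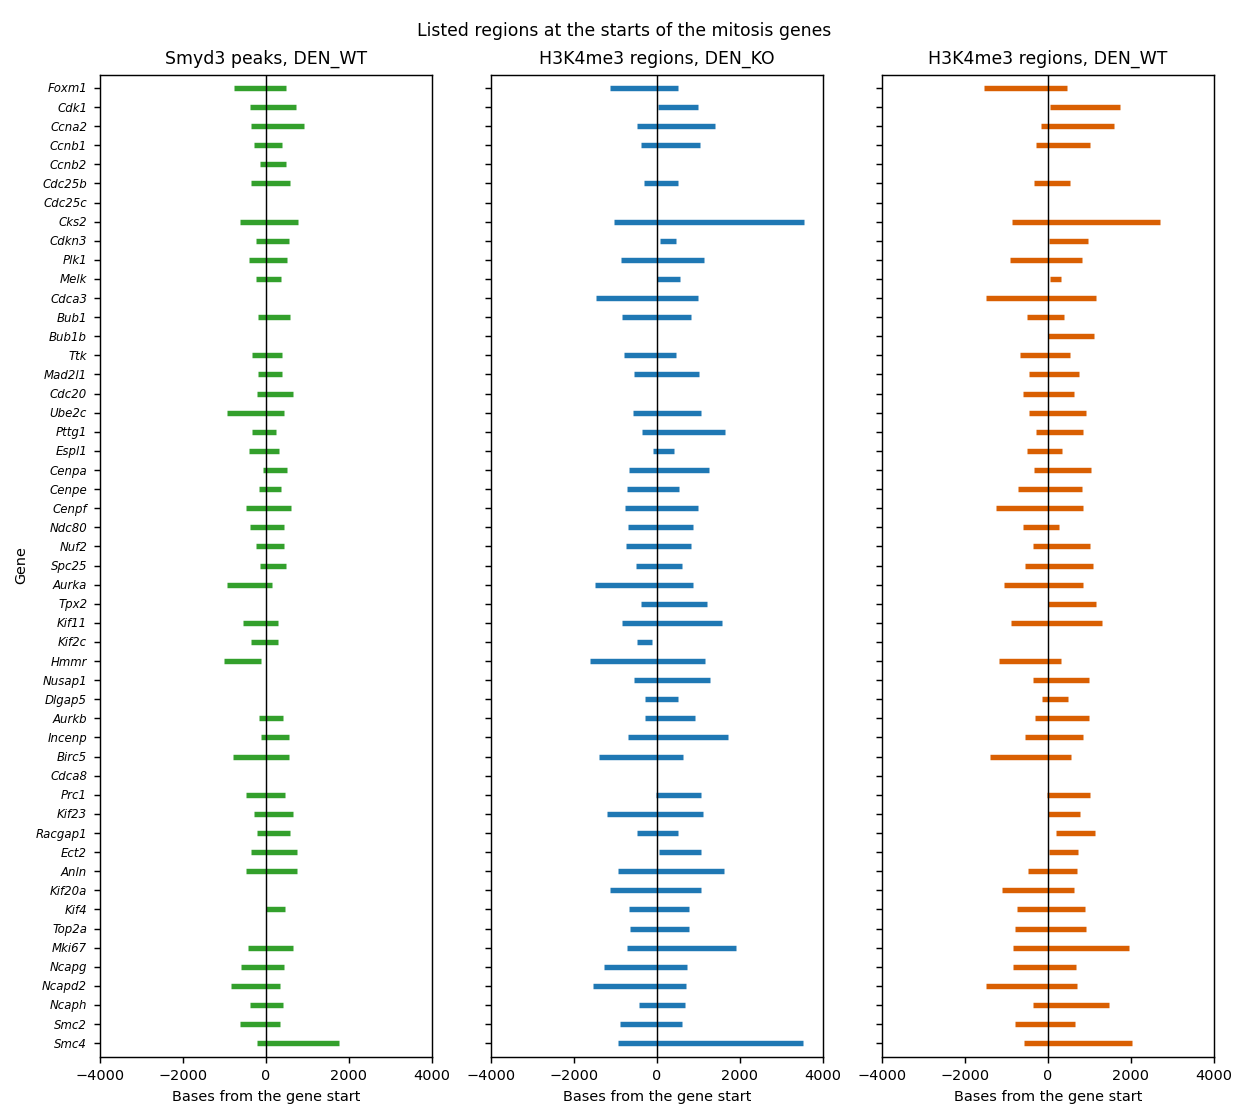
Listed regions at the start of each mitosis gene (rows), by distance in bases from the start (x axis, positive into the gene), for Smyd3 in DEN_WT, H3K4me3 in DEN_KO and H3K4me3 in DEN_WT livers. Smyd3 regions have a median width of 845 bases at 42 genes and H3K4me3 regions of 1608 (DEN_KO, 46 genes) and 1387 (DEN_WT, 47 genes); empty rows have no region within 1000 bases.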

How the data were processed

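RNA of 12 mouse livers and chromatin of DEN-treated livers were measured. The submitters' processing notes name DESeq, Cufflinks, TopHat2 2.0.9, Bowtie2, cutadapt and the build mm9, without roles. What counted the reads, whether by strand, and what called regions is not given in the sources used here. RNA values as deposited are a score, normalized read counts that the authors rounded to whole numbers; recomputed median-ratio factors lay between 0.9986 and 1.004. The deposited region lists hold positions and a score of 0 in every line, 1 list for 2 replicates; whether reads were pooled is not stated. Pol II and input libraries were not analysed here.

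The members, the other gene lists and the tests were chosen with earlier results of these data known. Each symbol's highest-mean row was used. limma 3.58.1 (R 4.3.3) fitted the 4 groups of 3 to log2(value + 1) with a trended variance (8 residual degrees of freedom), with Benjamini-Hochberg adjustment over 16471 genes with values of at least 10 in 3 libraries and a threshold of 0.05. This scale understates changes of low genes. On data simulated for DEN_WT against WT, in which 15628 genes were tested, it found 44 of 100 genes changed 2-fold and 84 of 100 changed 4-fold. The changed genes were drawn only from genes above a WT mean that most members do not reach, Plk1 (3.67) and Bub1 (2.33) among them. These shares therefore do not apply to most of the set. Genes shown with every library were, per role, the member with the highest mean and those with the smallest p in DEN_WT against WT and in DEN_KO against DEN_WT; then members called in KO against WT or the interaction, not past in DEN_WT against WT, among the 3 largest changes in DEN_KO against KO, or with H3K4me3 in 1 list alone; and 2 genes per other list. Ndc80, Foxm1, Cdk1, Mki67, Nusap1 and Espl1 were added after their values were seen. The smallest p of an exact permutation of 3 against 3 libraries is 0.1. Because values are scaled, counting error is not given; depth is known only as the summed values. The main fit did not pair mice by replicate number. Alternatives varied normalization, filter, weights, block and libraries left out, and for regions the window and width.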

Additional observations from a re-analysis of the deposited data

Results flagged for a closer look

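The DEN effect differed between the genotypes, by the test of the interaction in limma, for 6 mitosis genes, where 7.83% of all tested genes were called in that direction. The DEN effect in KO minus that in WT was -2.89 for Bub1, -2.02 for Bub1b, -3.01 for Ttk, -2.02 for Cenpa, -2.78 for Kif2c and -2.44 for Top2a on the log2 scale. In each the DEN effect was smaller in KO. Without DEN_WT replicate 2, which read highest for all 6, only Cenpa still passed, and likewise without a filter on low values. Bub1, Ttk and Kif2c reached the filter's minimum only through the DEN_WT libraries, where they are high, so their calls cannot be read as support. With 3 libraries a group, no sample was tested for standing apart.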

How the results depend on the processing

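No member's log2 fold change that passed, as reported or under an alternative run, changed sign between them. Members with 1 sign under every alternative numbered 50 of 51 in DEN_WT against WT, 47 in DEN_KO against DEN_WT, 44 in DEN_KO against KO, 27 in KO against WT and 46 in the interaction. With quantile normalization 6 members were higher in DEN_KO against KO and with array weights 23, against 13. Of all 16471 tested genes, 1244 were higher with quantile normalization and 2745 with array weights, against 1468. Quantile normalization also shifted the median of all genes in DEN_WT against WT to -0.11 and the share of calls that were higher there to 48.0%, against 54.5%. Array weights called 1 member in KO against WT, against 0, and 13 in the interaction, against 6. They also raised the calls over all tested genes. In KO against WT these were 1192 higher and 1418 lower, against 90 and 101. In the interaction they were 2374 higher and 2247 lower, against 1438 and 1289. Without a filter on low values the interaction called 1 member. Leaving out each library in turn gave 38 to 48 members higher in DEN_WT against WT, 9 to 32 lower in DEN_KO against DEN_WT and 4 to 17 higher in DEN_KO against KO. It gave 0 called in KO against WT each time and 1 to 11 called in the interaction, all lower. Other genes of the pathway lower in DEN_KO against DEN_WT numbered 23 to 49. The counts over all 16471 tested genes moved too. They were 2157 to 2877 higher in DEN_WT against WT, 2018 to 3116 lower in DEN_KO against DEN_WT and 780 to 1548 higher in DEN_KO against KO. In KO against WT they were 27 to 262 higher and 33 to 298 lower, and in the interaction 820 to 1422 lower. No pairing by replicate number showed in the values. Deviations of libraries with the same number correlated at -0.0996 to 0.120, and 3 of 12 libraries correlated best with their own number. Such correlations cannot tell whether the mice were paired. A fit with the replicate block gave 45, 28, 11, 0 and 6 members in the comparisons in that order. Over all 16471 tested genes it called 2527 higher in DEN_WT against WT, 2696 lower in DEN_KO against DEN_WT and 1337 higher in DEN_KO against KO. In KO against WT it called 72 higher and 80 lower, and in the interaction 1146 lower. With regions only at least as wide as the median of their list, 24 members (47.1%) had H3K4me3 in DEN_KO, against 49.9% of tested genes. In DEN_WT 21 members (41.2%) had it, against 45.5%, and 26 (51%) had a Smyd3 region, against 50.4%. The members were thus not above tested genes for H3K4me3, and near them for Smyd3. The cause of these shifts was not tested, except that narrower regions were dropped by construction. Untreated values under 10 limit the precision of many members, most of all in the folds of DEN-treated over untreated livers.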
